A study of Rattus norvegicus with 16 samples.

Results

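The early response of the newborn rat kidney to the loss of its partner was measured by RNA sequencing of whole kidney tissue from male Wistar pups. Pups underwent left-sided uninephrectomy (UNX, removal of 1 kidney) or a sham operation on day 1 of life, under isoflurane per the protocol given for UNX, and kidney tissue was taken 3 days later. UNX day 1 and sham day 1 held 4 libraries each, 8 of the 16 in the series. The other 8, UNX day 14 and sham day 14, came from the same strain and sex with surgery on day 14 of life and the same interval of 3 days. No genetic change or drug separated the groups. The sources used here do not give the kidney sampled after sham surgery, the litter of each pup, or whether each library came from a separate pup. The p-values therefore measure the spread between these libraries.

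In the rat, new nephrons, the filtering units of the kidney, go on forming for some days after birth from progenitor cells at the outer edge of the cortex. A kidney lost in this period is therefore lost while the remaining one is still adding nephrons. After nephron loss the remaining kidney is known for compensatory growth, in which tubule cells enlarge and divide. These statements are background. The comparison asked which genes differed between the remaining kidney and the sham kidney at this stage.

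Expression was given as regularised-log (rlog) values, which are log2 read counts scaled for library depth and shrunk towards each gene's mean, most strongly for weakly expressed genes. A difference of 1 on this scale is a doubling. The shrinkage understates the changes of weak genes, and also the spread between their libraries. All 14845 of 26689 genes with a mean of at least 3 over the 16 libraries were compared. The table gives Ensembl rat identifiers, and 0 of the 26689 could be given a symbol, so genes appear by identifier. For the same reason the tissue was not checked against kidney markers, and what these genes do is not described here. At most 2 identifiers per direction are printed. They are the genes with the lowest p among those whose 4 UNX and 4 sham values did not overlap.

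Few gene differences between the remaining kidney and the sham kidney passed the test. Of 14845 genes, 1 passed the test (0.00674%, limma, Benjamini-Hochberg adjusted p under 0.05), and it was lower after UNX. At an unadjusted limma p under 0.05 there were 1061 genes (7.15%), of which 501 were higher (3.37%) and 560 lower (3.77%). The 4 UNX values lay entirely above the 4 sham values in 314 genes (2.12%) and entirely below them in 355 (2.39%). Over all tested genes, 7201 differences were above 0 and 7644 below it, with a median of -0.0025, a balance that the scaling for library depth largely sets in advance.

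The gene that passed, ENSRNOG00000017524, is weakly expressed, and 9.59% of the tested genes had a mean at or under its own. In the UNX day 1 libraries 1 to 4 it stood at rlog values of 4.95, 4.93, 4.98 and 4.92. In the sham day 1 libraries 1 to 4 it stood at 5.31, 5.22, 5.24 and 5.23. The groups were separated by a gap of 0.24, several times the SD within either group (0.025 in UNX and 0.042 in sham, n = 4 each). A wide gap and a small SD are what a choice by the lowest p favours, so they add nothing to the test. It fell by 0.30 on the log2 scale (SE 0.047, limma adjusted p = 0.0483). Over the alternative analyses its difference stayed between -0.31 and -0.28, but it was past the threshold in 2 of 15, with limma adjusted p from 0.0071 to 0.402. It did not pass in any fit that left out 1 of the 8 day 1 libraries, where the limma adjusted p was at least 0.0695. Such fits also have 1 library fewer to estimate the difference, so the lost call does not tie the result to any single library. With the library number as a block the limma adjusted p was 0.402.

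ENSRNOG00000031273 had the next lowest p and is among the most abundant genes, at or above 98.4% of those tested. Its UNX day 1 values were 12.7, 12.8, 12.7 and 12.8 in libraries 1 to 4. Its sham day 1 values were 12.9, 13.1, 12.9 and 12.9, so the groups did not overlap, and sham library 2 stood above the other 3 sham libraries. The difference was -0.23 (95% interval -0.32 to -0.15), so that the UNX mean was at 85.1% of the sham mean, and it missed the threshold (limma adjusted p = 0.116).

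ENSRNOG00000012956 had the lowest p among genes that were higher in UNX kidneys, and it too is abundant. It stood at 12.1, 12.4, 12.4 and 12.2 in UNX day 1 libraries 1 to 4. It stood at 11.9, 11.9, 11.7 and 12.0 in sham day 1 libraries 1 to 4, with a gap of 0.15 between the lowest UNX and the highest sham value. The spread within UNX (SD 0.13) and within sham (SD 0.12) was similar. The difference was 0.42 (95% interval 0.26 to 0.57), a mean level 33.4% higher that also missed the threshold (limma adjusted p = 0.116).

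ENSRNOG00000042860 had the widest gap between the groups of the 4 genes, 0.34. Its UNX day 1 values were 11.2, 11.5, 11.2 and 11.4 in libraries 1 to 4. Its sham day 1 values lay close together at 10.8, 10.7, 10.7 and 10.8. The difference was 0.55 (95% interval 0.33 to 0.78), a mean level 46.6% higher (limma adjusted p = 0.209). Fitted on the 8 day 1 libraries alone, whose spread then sets the error, this gene passed the test (limma adjusted p = 0.0139), while ENSRNOG00000017524 did not (limma adjusted p = 0.226). The plot of these 4 genes by library shows the separation on day 1 beside the values from day 14.

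**Figure D1:**
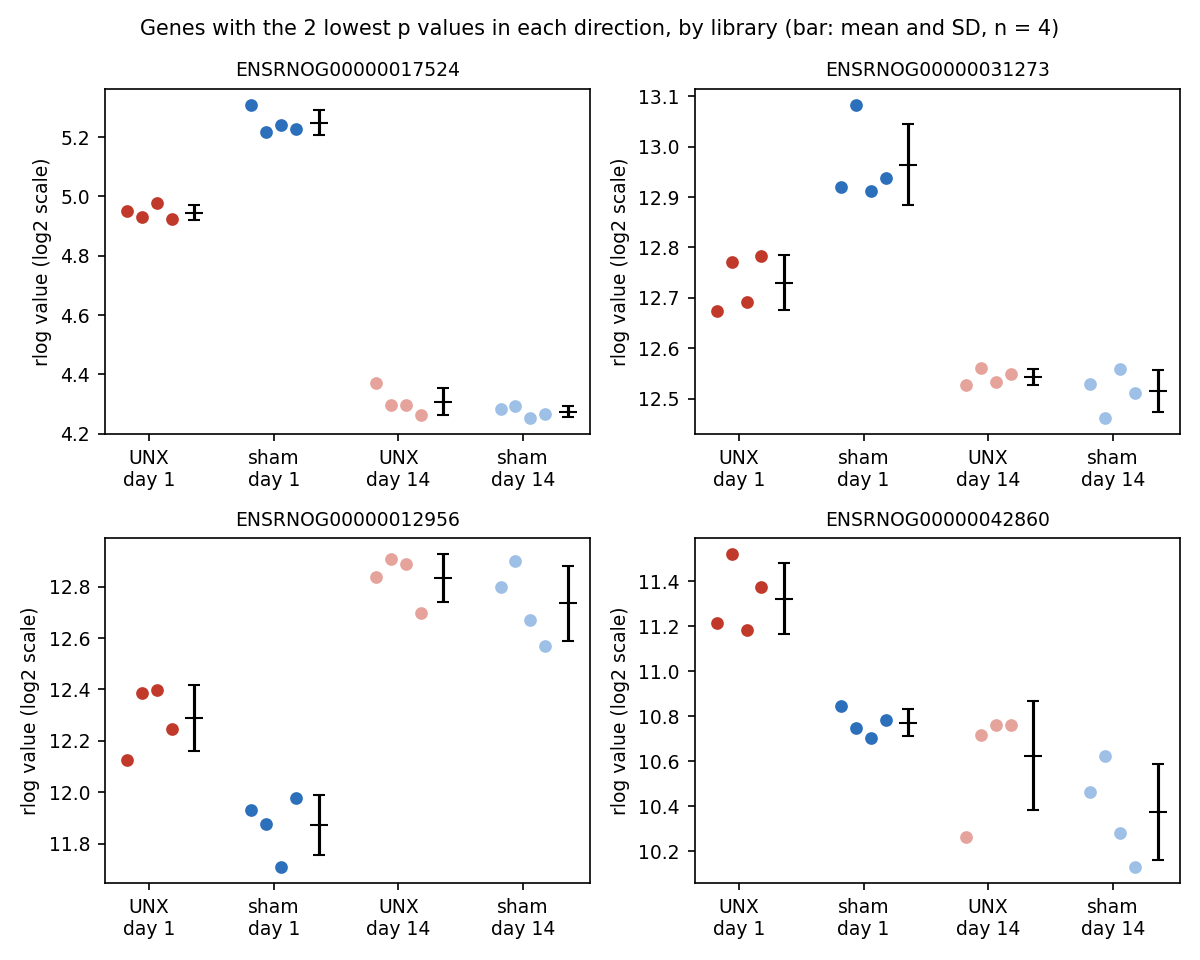
rlog values (log2 scale) of the genes with the 2 lowest p values in each direction, 1 point per library (libraries 1 to 4 from left to right), with the mean and SD of each group of 4 at its right. In each panel the 4 UNX day 1 points lie on one side of the 4 sham day 1 points, by which the genes were chosen, and the UNX day 14 and sham day 14 points overlap.

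Whether the response on day 1 differed from that on day 14 was tested gene by gene, by subtracting one effect of UNX from the other, and 0 of 14845 genes passed (0%, limma, smallest adjusted p = 0.058, 1586 genes at an unadjusted p under 0.05). Without sham day 1 library 3 this count was 5. The named genes were chosen by their day 1 values, which also enter the difference between effects. That choice tends to enlarge the differences given next, so their intervals do not show an effect particular to day 1. For ENSRNOG00000017524 the effect on day 14 was 0.03 and the difference between effects was -0.34 (95% interval -0.47 to -0.20, limma adjusted p = 0.134). ENSRNOG00000031273 differed between UNX and sham by 0.03 on day 14, and its difference between effects was -0.26 (95% interval -0.38 to -0.14, limma adjusted p = 0.146). ENSRNOG00000012956 and ENSRNOG00000042860 were higher in the UNX mean at both ages, by 0.10 and 0.25 on day 14, without passing (limma adjusted p of 0.593 and 0.290). Their differences between effects were 0.32 (95% interval 0.10 to 0.54) and 0.30 (95% interval -0.02 to 0.62), and neither passed (limma adjusted p of 0.339 and 0.486).

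The genes whose UNX and sham values separated on day 1 were also looked up on day 14, where 1034 of all 14845 tested genes (6.97%) separated in either direction. The 2 comparisons share no library. Of the 669 genes without overlap on day 1 (4.51% of those tested), 22 also separated in the same direction on day 14, 13 higher and 9 lower, which is 3.29% of the day 1 genes and 2.13% of the day 14 genes. Another 28 separated in opposite directions at the 2 ages, 4.19% of the day 1 genes and 2.71% of the day 14 genes. Of the 669, 47.8% had a day 14 difference of the same sign, against 49.7% over all tested genes. The share with the same sign was near that of all genes. The 6.97% covers both directions together, so it is not a like measure for the 3.29% or the 4.19% taken singly. Nothing particular to the day 1 genes is read from these shares.

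How large a change the data leave room for was read from the 95% limma intervals of the single genes. In 11523 genes (77.6%) the whole interval lay within 0.25 of no difference, a band from 15.9% lower to 18.9% higher. In 14645 genes (98.7%) it lay within 0.5, and in 14827 (99.9%) within 1. Only 18 genes had an interval that reached a doubling or a halving on the rlog scale. Because rlog values are shrunk, these bounds hold for the deposited values and are too narrow for the underlying change of weakly expressed genes. The median size of the difference was 0.048 against a median interval half-width of 0.14.

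By size, 96 genes were higher in UNX means by at least 0.25 and 81 were lower by as much. Of these genes 47 (26 higher, 21 lower) had values that did not overlap, against 4.51% of all tested genes. At 0.5 or more there were 13 higher and 6 lower genes, of which 2 and 3 did not overlap and 0 passed the test. Genes chosen for a large difference in the same libraries separate more often by that choice, so nothing is read from these counts. The largest difference was -3.79 (95% interval -7.08 to -0.50), in a gene with an SD of 4.16 among the sham libraries and 0.085 among the UNX libraries. The next largest were 1.03 and -1.01. All 19 genes kept a difference of at least 0.25 in the same direction when any 1 of the 8 libraries was left out, but several shrank. Without sham library 3 the difference of -1.01 became -0.35, the largest difference became -2.56, and one of 0.53 became 0.27. For the largest difference, -3.79, the SD of 4.16 among the sham libraries was larger than the difference itself. Leaving out 1 library at a time cannot show whether that difference rested on more than 1 sham library, so its being kept is not read as shared by the group.

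The 19 large differences leaned on particular libraries. Among the 13 genes that were higher in UNX means, UNX library 4 was the highest of the 8 libraries in 9 genes, and sham library 3 was the lowest in 8. Relative to the sham mean, the median over these 13 genes was 1.32 in UNX library 4 and 1.13 in UNX library 1, but 0.41 in UNX library 3 and 0.15 in UNX library 2. Sham library 1, at 0.29, was above UNX library 2. Among the 6 genes that were lower in UNX means, sham library 3 was the highest of the 8 in 4 genes, with a median of 0.70 above the sham mean. Their medians in UNX libraries 1 to 4 were -0.76, -0.96, -1.04 and -0.49. Sham libraries 1, 2 and 4 were also below the sham mean, at -0.19, -0.22 and -0.14, since sham library 3 raised it. Over the 177 genes with a difference of at least 0.25, the difference shrank most without sham library 3 in 62 genes (35.0%) and without UNX library 4 in 43 (24.3%).

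**Figure D2:**
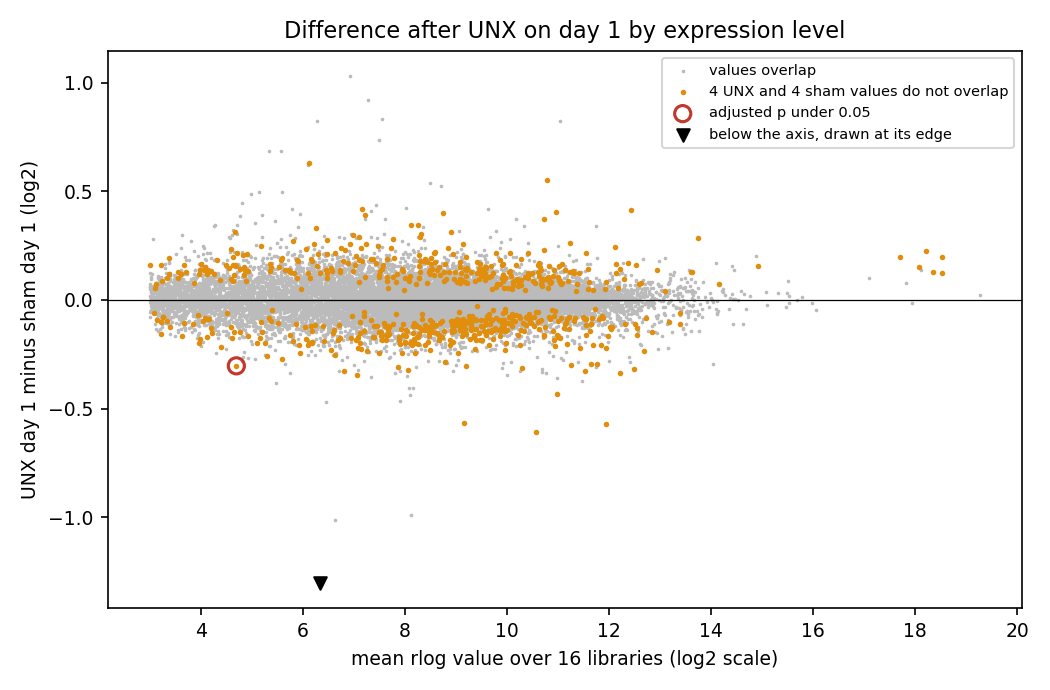
Difference between the UNX day 1 and sham day 1 means (log2) of each of 14845 genes, against its mean rlog value over 16 libraries. Grey points have overlapping values, orange points are the 669 genes whose UNX and sham values do not overlap, the red circle marks the gene that passed the test, and the black triangle stands for a gene at -3.79, beyond the axis.

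The most abundant genes separated most often. Values did not overlap in 4.30% of the 1745 genes with a mean from 3 to 5, in 3.38% of the 2397 genes from 5 to 7, in 4.01% of the 4510 genes from 7 to 9, in 5.03% of the 4656 genes from 9 to 11, in 6.09% of the 1362 genes from 11 to 13 and in 8.57% of the 175 genes at 13 or over, against 4.51% over all tested genes. The direction was not the same along this scale. Genes without overlap were 46 higher and 29 lower from 3 to 5, and 44 and 37 from 5 to 7. They were 76 and 105 from 7 to 9, 101 and 133 from 9 to 11, and 35 and 48 from 11 to 13. At 13 or over they were 12 and 3.

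The most abundant genes, those with a mean of at least 17, were singled out after their values were seen. There were 11 of them. In UNX means 10 were higher and 1 was lower than in sham means, with a median difference of 0.13 and a range from -0.01 to 0.23. In 6 of the 11 the UNX values all lay above the sham values, as they did in 2.12% of all tested genes. Among the 175 genes with a mean of 13 or over, which include the 11, they did so in 12. An unadjusted limma p under 0.05 was found in 4 of the 11, and in 7.15% of all tested genes. Of the 11, 0 passed the test (limma adjusted p from 0.571 to 0.986). Because the set was chosen after its values were seen, these counts are not a test of it. Together they took 19.5%, 19.2%, 20.1% and 18.9% of the summed back-transformed values in UNX libraries 1 to 4. In sham libraries 1 to 4 they took 17.9%, 18.1%, 18.9% and 17.5%, so UNX library 4 and sham library 3 stood at the same level and the other libraries did not overlap. Without sham library 3 all 11 were higher in UNX means and the median difference was 0.15. After surgery on day 14 all 11 were also higher in UNX means, with a median difference of 0.10, and 0 of the 11 passed the test of the difference between effects (lowest limma adjusted p = 0.699).

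The sham day 1 libraries varied more among themselves than the UNX day 1 libraries did. The median SD over genes was 0.088 among the 4 sham day 1 libraries and 0.067 among the 4 UNX day 1 libraries, 1.31 times as large in sham. The SD was larger in sham in 9859 genes (66.4%), and at least 2 times as large in 3906 genes, while it was at least 2 times as large in UNX in 1155. The share rose with expression level, from 55.4% of genes at a mean of 3 to 5 to 78.9% at 11 to 13 and 80.0% at 13 or over. Without sham library 1, 2 or 4 the median SD among the remaining sham libraries was 0.086, 0.081 or 0.088. Without sham library 3 the median SD among the remaining sham libraries was 0.078. It was larger in these than in all 4 UNX libraries in 57.8% of genes. Leaving out a UNX library also lowered the median SD within UNX, from 0.067 to between 0.061 and 0.065. The 57.8% therefore sets unlike numbers of libraries against each other. Among the day 14 libraries the SD was larger in sham in 58.5% of genes. A difference in spread between the groups was not tested.

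**Figure D3:**
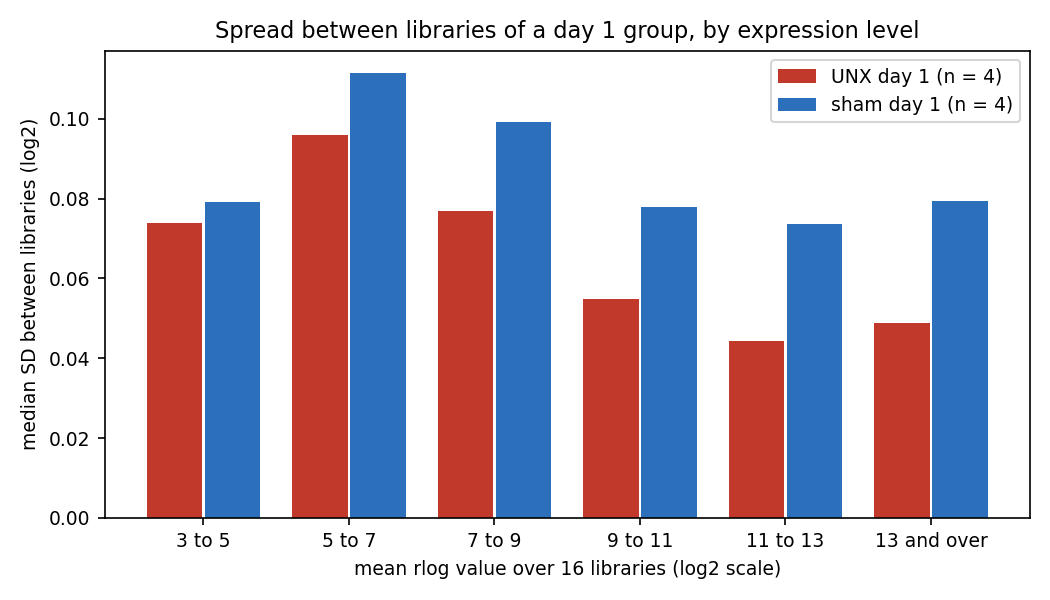
Median over genes of the SD between the 4 libraries of a day 1 group (log2), for 6 bands of the mean rlog value. The sham day 1 bars are taller than the UNX day 1 bars in every band, from 0.079 against 0.074 at 3 to 5 to 0.074 against 0.044 at 11 to 13.

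Some libraries stood apart from the others of their group. On a principal component analysis of the 8 day 1 libraries, sham library 3 stood at 16.8 on the first component (27.9% of the variance), the other sham libraries at -3.02 to 2.80 and the UNX libraries at -4.39 to -2.30. On the second component (17.6%) sham library 2 stood at 11.8 and the other 7 libraries between -6.96 and 2.71. Pearson correlations across genes were 0.9982 to 0.9988 within UNX and 0.9964 to 0.9978 within sham. The absolute depth of the libraries is unknown. The values given to undetected genes fall as depth rises, and by their order the UNX libraries ranked 2 to 9 in depth among the 16 (rank 1 is the deepest) and the sham libraries 7 to 16, with sham libraries 2 and 3 at ranks 16 and 15. The part of depth and of sham library 3 in the spread and in the count of separated genes was not tested.

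How far the comparison rested on single libraries was examined by leaving out each of the 8 in turn. The number of genes past the threshold was then 0 in 7 fits and 2 in the fit without sham library 3, and ENSRNOG00000017524 was in none of them. The number at an unadjusted limma p under 0.05 ran from 832 without UNX library 1 to 1328 without sham library 1. It was lower than 1061 without each UNX library and without sham library 2 or 4. Each of these fits also had 1 library fewer to estimate the differences. A lower count or a lost call therefore does not by itself show that the comparison rested on the library left out.

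**Figure D4:**
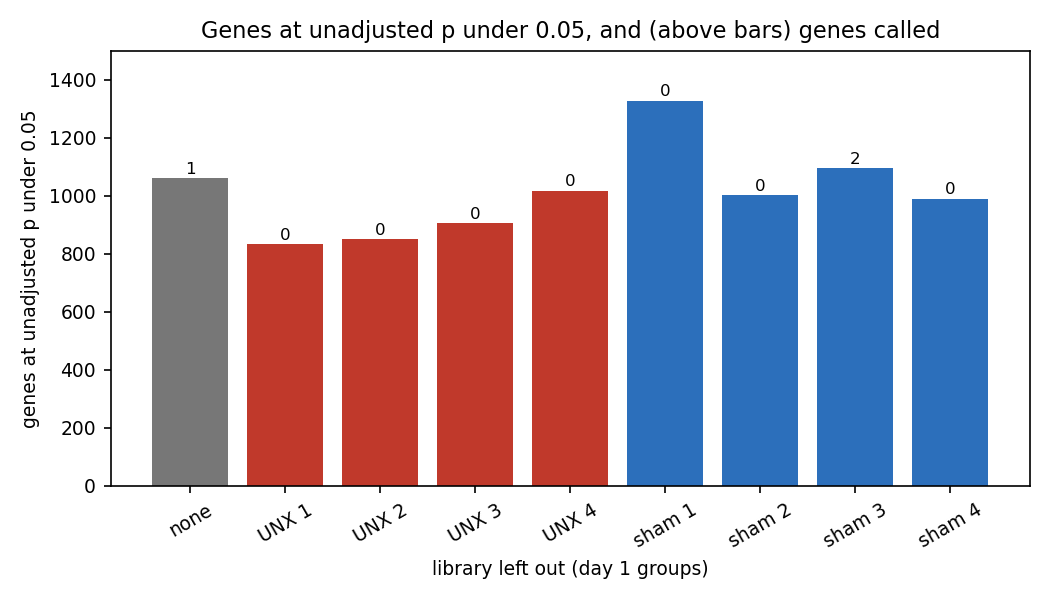
Number of genes at an unadjusted limma p under 0.05 for UNX day 1 against sham day 1 with all libraries (grey) and with 1 library left out (red for UNX, blue for sham), with the number past the adjusted threshold above each bar. The bars run from 832 to 1328, and the number above them is 1 with all libraries, 2 without sham 3 and 0 otherwise.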

How the data were processed

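The deposited values are rlog expression levels on a log2 scale, 1 column per library, as the table's name and values show. The submitters' processing notes list DESeq2, featureCounts, Subread 1.5.1, STAR 2.4.0 and BWA 0.7.14 with no role for any. The genome build, annotation release and strand setting were not given in the sources used here. How reads of overlapping or near-identical genes were assigned is therefore not known here. RNA was DNase-treated and depleted of unwanted sequences, per the labels' protocols. Groups came from the sample titles, and columns headed CO were taken as sham.

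With no counts to model, limma 3.58.1 in R 4.3.3 was fitted to all 16 libraries with 1 mean per group (12 residual and 6.88 prior degrees of freedom, mean-variance trend, two-sided, Benjamini-Hochberg over 14845 genes), and was checked on simulated data. Summaries used Python 3.11.15 with pandas 2.3.3. The named genes were to be the 12 per direction with the lowest p and values that did not overlap, with members of 27 gene and marker lists. Without symbols this became 2 per direction, and 0 of the 27 lists were tested. The depth order used 151 genes in which the gap between the highest and the second value was over 20 times the range of the other 15. Members, lists and tests were chosen with earlier results of these data known. Alternatives changed the filter, scaling, variance model, weights, libraries, block and threshold. No sequences are shown, since no identifier matched the reference table.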

Additional observations from a re-analysis of the deposited data

Results flagged for a closer look

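In a screen of 12 groups of 4 libraries (the 4 named genes and 2 principal components in each day 1 group), 1 group held a library far from the other 3 by Dixon's test, which about 1 in 20 groups passes by chance. For ENSRNOG00000031273, sham day 1 library 2 stood at an rlog value of 13.0833, above the other 3 sham libraries at 12.9 each. The difference of this gene was -0.19 without that library and -0.23 with it.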

How the results depend on the processing

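All alternatives were planned. For UNX against sham on day 1, 1 gene became 0 with no filter on low values, with a mean of at least 5 (which removed the gene itself), with libraries centred on their medians, with the robust variance model and with the replicate block. It became 2 with array weights and 2 with the 8 day 1 libraries alone. Without 1 library it ran from 0 to 2. It stayed at 1 without the variance trend and at adjusted p under 0.10. The count for the difference between effects, 0, became 1 at adjusted p under 0.10, ran from 0 to 5 without 1 library, and was 0 in the other 7 alternatives. Beyond the gene removed by the filter, the cause was not tested. The replicate block left 913 genes at an unadjusted p under 0.05. The library numbers were not treated as pairs, since the labels name no shared litter or day and same-numbered deviations correlated at 0.058, 0.037, -0.020 and 0.12. As a hint from the data, 5 of 8 libraries correlated best with their own number, so pairing by litter or day is not known. The named genes kept their direction in every alternative in which they were tested, which values without overlap fix in advance when libraries are left out. Absolute depth is unknown, so counting error was not estimated.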

Other observations

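The 7870 varying genes with a mean under 3 were outside the test. In these, the UNX day 1 values all lay below the sham day 1 values in 252 genes and all above them in 42. Among the 14845 tested genes they all lay below in 355 (2.39%) and all above in 314 (2.12%). Over all 7870 genes the UNX minus sham difference had a median size of 0.0029 and ran from -0.16 to 0.24. The UNX day 1 libraries had a mean depth rank of 5.5 and the sham day 1 libraries of 12.75. These ranks were themselves read from the values of undetected genes, which fall as depth rises. They are therefore not a measure of depth separate from low values, and nothing about the 252 and 42 genes is read from them. The part of depth in the counts of 252 and 42 was not tested.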
